A study of Mus musculus with 5 samples.

Results

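The erythroid cells of the newborn TMJ disc were taken from the 3 d library by their hemoglobin content. Cells were retained when at most 30% of their UMIs came from mitochondrial (mt-) genes, and a retained cell was called erythroid when Hba-a1, Hba-a2, Hbb-bs and Hbb-bt together made at least 50% of its UMIs. This selected 333 of 14959 retained cells, or 2.23% with an exact (Clopper-Pearson) 95% interval of 2.00 to 2.48%. No 3 d barcode with that much hemoglobin was lost through the mitochondrial limit. The hemoglobin level of these cells is what they were chosen for and is given as a description. Their identity was read from genes outside hemoglobin. Alas2, which starts heme synthesis in red cell precursors, had 1835 UMIs in the 333 erythroid cells and 421 in the other 14626 cells, and at least 1 Alas2 UMI was seen in 298 of the 333.

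In the temporomandibular joint (TMJ), a disc of fibrocartilage separates the lower jaw from the skull. The study profiled mouse discs, labelled as wild type (WT) C57BL/6 in every library, by droplet single-cell RNA sequencing, in which transcript 3′ ends are tagged with unique molecular identifiers (UMIs), and a UMI count is a count of molecules that does not scale with transcript length. There was 1 library per condition, with untreated discs taken at 3 d (newborn stage), 3 w (juvenile), 16 w (adult) or 78 w (aged), and with surgically injured discs of mice aged 7 weeks. Pups of both sexes went into the 3 d suspension, and males gave the older untreated libraries. For the injured library the labels give no sex, and the study's methods describe the injury in Myh11-CreER+; Tm fl/- mice, a tamoxifen-driven reporter of mural cells, without saying whether these gave the library. Xist, which is expressed in female cells, stood at 645 CPM (UMIs scaled to 1000000) in the non-erythroid cells of the injured library and 887 CPM in those at 3 d, against 0.0877 to 0.337 CPM in the 3 libraries from males. The deposited matrix of the 78 w library carries a younger age in months in its name, and the labelled age was followed. With 1 library per condition no test between conditions was possible, and all intervals below are 95% intervals for counting error only. How many animals were pooled is not given in the labels.

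Red cells mature from nucleated erythroblasts that fill with hemoglobin, expel the nucleus and enter the blood as reticulocytes, which still hold RNA, mitochondria and ribosomes and lose them within a short time. Hemoglobin is assembled from alpha and beta chains and heme. Embryonic red cells of the yolk sac use other chains than those made later in the fetal liver and the bone marrow. In C57BL/6 mice the adult alpha chains come from Hba-a1 and Hba-a2, and the adult beta chains from Hbb-bs and Hbb-bt.

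The promoters of the genes on which most of the results below turn are shown from the RefSeq table of GRCm38.p6, as the 150 bases before the annotated start of each gene, 5′ to 3′ on the strand of the gene. Capitals mark a match on either strand to a GATA box (AGATAA or TGATAA, each also with G as its last letter), a CACCC box (CACACCC) or a CCAAT box (CCAAT). Of 32851 promoters in that table, 16.0% held a GATA box, 4.54% a CACCC box and 24.5% a CCAAT box in the same window. Hbb-bs (chr7:103827929-103828078, minus strand) and Hbb-bt (chr7:103813924-103814073, minus strand) are the pair of beta genes whose proportion varied between cells, and Alas2 (chrX:150547267-150547416, plus strand) was the heme gene with the highest level.
Hbb-bs: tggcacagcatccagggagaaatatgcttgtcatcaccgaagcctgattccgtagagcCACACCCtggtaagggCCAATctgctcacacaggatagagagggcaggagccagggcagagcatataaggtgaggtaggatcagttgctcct
Hbb-bt: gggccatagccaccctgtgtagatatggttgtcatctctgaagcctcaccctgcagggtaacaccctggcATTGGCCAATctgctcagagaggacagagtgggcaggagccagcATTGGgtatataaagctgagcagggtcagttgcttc
Alas2: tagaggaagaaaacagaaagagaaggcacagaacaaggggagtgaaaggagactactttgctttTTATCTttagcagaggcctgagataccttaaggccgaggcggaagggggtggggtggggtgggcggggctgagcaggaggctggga
Both beta promoters held a CCAAT box in the sense direction, starting 76 bases before the start in Hbb-bs and 75 bases before it in Hbb-bt. In Hbb-bt 2 further matches lay on the opposite strand, and the match starting 80 bases before the start abutted the sense one. The CACCC box as spelled here was found in Hbb-bs only, 92 bases before the start. Alas2 held a GATA box on the opposite strand, 86 bases before the start. A match is a run of letters and is not a measured binding site. GENCODE M21 places these starts further upstream than RefSeq, so that the Hbb-bs window lies inside the gene as GENCODE gives it and the Hbb-bt and Alas2 windows overlap theirs.

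The 3 d library held 15169 barcodes and 125130270 UMIs. Erythroid cells had fewer UMIs than the other cells, with a lowest count of 500, a median of 4865 and a highest count of 19045, against a median of 7816 in the other retained cells. Once hemoglobin was set aside, an erythroid cell had a median of 339 UMIs, ranging from 102 to 9227, and the other cells a median of 7806.5. A median of 178 genes was detected per erythroid cell, against 2330 per other cell. Levels below are therefore CPM (UMIs scaled to 1000000 in all, from counts summed over cells), with 8 hemoglobin genes (the 4 adult ones, Hba-x, Hbb-y, Hbb-bh1 and Hbb-bh2) left out of the totals. The totals were 174283 UMIs in the erythroid cells and 123041614 in the other cells, so that 1 UMI stood for 5.74 CPM in the erythroid cells. The cell with the most UMIs outside hemoglobin gave 5.29% of the erythroid total, and 11 cells with more than 2000 such UMIs, all of them at 50 to 80% hemoglobin, gave 44950 of the 174283.

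Hemoglobin shares were spread widely among the selected cells and gathered at the upper end. The median share was 91.2% and the highest 96.8%. There were 60 cells at 50 to 80%, 78 at 80 to 90%, 164 at 90 to 95% and 31 at 95% or more. The limit fell in a thinly filled range, where the members just inside it had shares of 50.1% and 51.1% and the cells just outside it 48.0% and 47.9%. In all, 72 retained cells had a share of 10 to 50% and were left out by the rule. Those 72 cells had a median of 12336 UMIs and carried stromal genes at 47201 CPM, close to the 48257 CPM of cells under 1% hemoglobin. No doublet caller was run, and the part of doublets in that range was not tested.

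**Figure D1:**
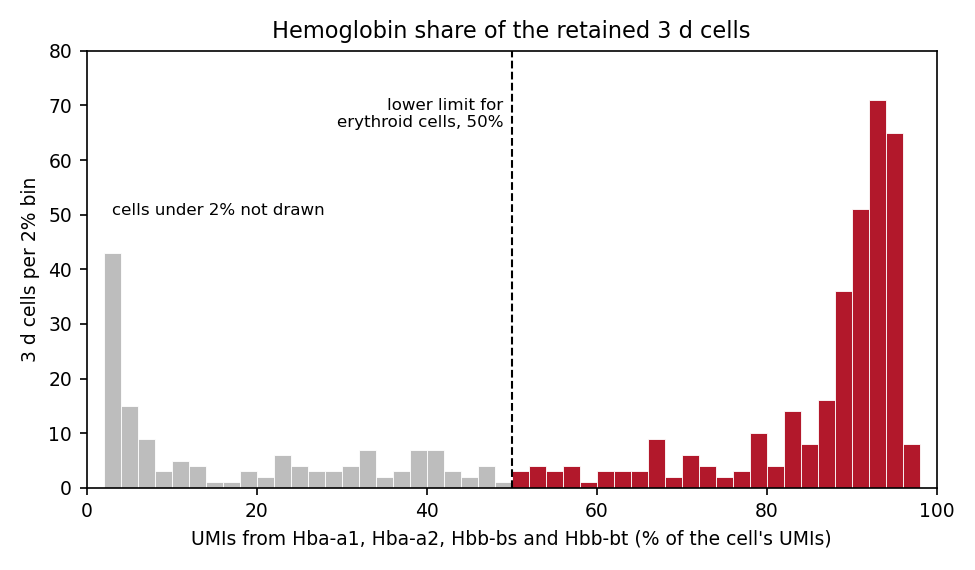
Number of retained 3 d cells (y axis, cells per bin of 2 percentage points) by the share of each cell's UMIs that came from the 4 adult hemoglobin genes (x axis, percent). The 14484 cells under 2% are not drawn, the dashed line is the 50% limit, and the red bars hold the 333 erythroid cells, most of them between 88% and 96%.

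The adult beta gene Hbb-bs (GRCm38 chromosome 7, 103826534 to 103828096, minus strand) gave 685413 UMIs in the 333 cells, 49.2% of the hemoglobin UMIs. Hba-a1 (chromosome 11, 32283511 to 32284465) followed with 329432 UMIs or 23.6%, Hba-a2 (chromosome 11, 32296489 to 32297298) with 232692 or 16.7%, and Hbb-bt (chromosome 7, 103812524 to 103813996, minus strand) with 146654 or 10.5%. All of the 4 adult genes had UMIs in every erythroid cell. The embryonic genes were absent or nearly so. Hba-x, Hbb-bh1 and Hbb-bh2 had 0 UMIs, which allows up to 0.000265% of the hemoglobin UMIs each, and Hbb-y had 1 UMI.

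Alpha chains made 40.3% of the hemoglobin UMIs of the erythroid cells as a whole. Per cell the alpha share had a median of 40.5% and ran from 7.54% to 90.4%, but 316 of the 333 cells lay between 30% and 60%. The cells outside that range, 8 below and 9 above, had a median of 1029 UMIs, against 5012.5 in the rest. Hba-a2 made a median of 41.4% of a cell's alpha UMIs, with 31.9% as the lowest and 50.2% as the highest value. The alpha pair is hard to tell apart by sequence. Of the 50-base words in the last 200 bases of the GENCODE M21 transcript of Hba-a1, 66.9% also occurred in that of Hba-a2, so the split between these genes depends on how the counting placed such reads. For Hbb-bs and Hbb-bt the shared part of the last 200 bases was 0%, although 65.8% of the words of the whole Hbb-bs transcript occurred in Hbb-bt.

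Hbb-bt made 17.6% of the beta UMIs over all erythroid cells, and here the cells did differ. The share was 0.115% in the lowest cell, 17.4% at the median and 35.1% in the highest. It was under 5% in 52 cells, between 5% and 15% in 71 cells and at 15% or more in 210 cells. The spread of Hba-a2 among the alpha UMIs was narrower, with 90% of cells between 35.6% and 45.8%, whereas the same range for Hbb-bt ran from 1.25% to 24.2%. Spearman's rho of the Hbb-bt share over the 333 cells, all from the same library, was 0.0600 with the hemoglobin share, 0.585 with the UMIs of the cell and -0.378 with the mitochondrial share of its UMIs outside hemoglobin. The genes that went with this share are described further on.

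Outside hemoglobin, 4014 genes had a mean of at least 25 CPM over the erythroid and the other 3 d cells. Called higher means a ratio of at least 4 and called lower a ratio of 0.25 or less, with a gene at 0 UMIs set to 3 UMIs. By these limits 143 genes (3.56% of those compared) were called higher and 136 (3.39%) lower in the erythroid cells. The ratio passed 10 for 79 genes and 100 for 24. The median ratio over the 4014 genes was 0.675, so that most genes lay below the other cells, and with every ratio divided by that median 203 genes were called higher and 44 lower. Without the 11 cells richest in UMIs outside hemoglobin 175 genes were called higher, among them all 143, and 325 lower, among them 88 of the 136. The lower calls rested on few molecules. Of the 136 genes 97 had fewer than 3 UMIs in the erythroid cells, 50 were still called with such counts raised to 3 UMIs, and for 1 gene the whole interval of the ratio lay at or under 0.25. The highest levels outside ribosomal and mt- genes were those of Ftl1 (ferritin light chain), Gpx1 (glutathione peroxidase), Tpt1, Alas2 and Ubb (a ubiquitin gene), between 10374 and 14677 CPM. Among the genes with enough UMIs to be ranked (at least 100), the ratios of Alas2, Slc4a1, Car2 and Isg20 went from 3077 down to 1122.

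**Figure D2:**
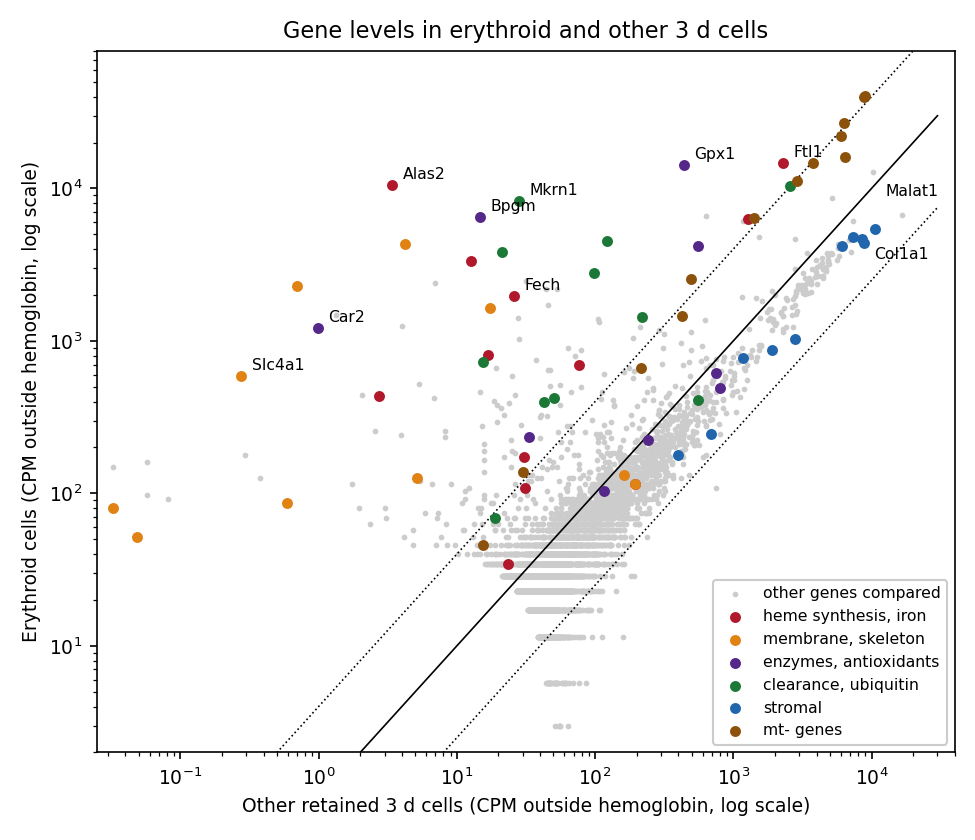
Each point is 1 of 4014 genes, by its level in the 14626 other 3 d cells (x axis) and in the 333 erythroid cells (y axis), both in CPM outside hemoglobin on log scales, with colours for gene lists. The solid line marks equal levels and the dotted lines a ratio of 4 and 0.25, and the 6 genes at 0 UMIs in the erythroid cells are drawn at 3 CPM. Alas2, Slc4a1 and Bpgm stand far above the lines while the stromal genes lie between equal levels and the lower line.

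Heme synthesis was carried by its first and last enzymes. Of 8 pathway genes, 5 were compared and 3 were called higher. Alas2 stood at 10529 CPM (interval of the ratio 2766 to 3429) against 3.42 CPM in the other cells. Fech, the ferrochelatase that puts iron into heme, stood at 1974 against 25.9 CPM, a ratio of 76.3 (68.1 to 85.3). Urod, in the middle of the pathway, stood at 172 against 30.4 CPM, a ratio of 5.67. Other middle enzymes were low, with 6 UMIs of Cpox, 6 of Ppox, 3 of Alad and 2 of Uros, and the intervals of the ratios of Cpox, Alad and Uros held 1.

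Of 16 genes of iron uptake and handling, 7 were compared and 6 were called higher. Slc25a37 (mitoferrin, which brings iron into mitochondria) stood at 3351 against 12.7 CPM, a ratio of 263 (239 to 290). Fam210b, another gene of mitochondrial iron supply, had a ratio of 159, Isca1, of iron-sulfur cluster assembly, 47.9, and Glrx5, of the same pathway, 9.01. The ferritin chains Ftl1 and Fth1, which store iron, stood at 14677 and 6323 CPM and had ratios of 6.44 and 4.93. The receptor side rested on few UMIs. Tfrc, the transferrin receptor through which erythroblasts take up iron, had 6 UMIs in the 333 cells, or 34.4 against 9.57 CPM, a ratio of 3.60 (1.32 to 7.85) at a mean level too low to be compared. In the same cells Tfr2, Slc11a2 and Slc40a1 had 1 UMI each.

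Among the 22 genes of the red cell membrane and its skeleton, 10 were compared and 8 were called higher. Slc4a1, the band 3 anion exchanger, stood at 585 against 0.276 CPM, a ratio of 2118 (1424 to 3221). Epb41, which ties the skeleton to the membrane, stood at 1652 against 17.3 CPM, a ratio of 95.4 (84.1 to 108.0). Epb42, another protein of the membrane skeleton, was also called higher, but on 14 UMIs against 4. Sptb, a spectrin chain, and Ank1, the ankyrin of red cells, were sparse, with 2 and 3 UMIs. Cd47 and Aqp1, which stromal and endothelial cells also make, had ratios of 0.586 and 0.821.

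The red cell enzymes and antioxidants were uneven. Bpgm, which makes the 2,3-bisphosphoglycerate that lowers the oxygen affinity of hemoglobin, stood at 6507 against 14.6 CPM, a ratio of 446 (413 to 480). Car2, a carbonic anhydrase, stood at 1211 against 0.992 CPM. Gpx1 reached 14212 CPM, a ratio of 32.3 (31.0 to 33.6), Prdx2 4217 CPM and a ratio of 7.60, and Cat, the catalase, 235 CPM and a ratio of 7.02. Together these were the 5 called higher among 9 compared of 12 listed. The general enzymes of glycolysis and redox balance were not among them. Gapdh had a ratio of 0.605, Aldoa of 0.924, Sod1 of 0.889 and Txn1 of 0.826.

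The list of organelle clearance and the ubiquitin pathway had 9 genes called higher among 11 compared of 15 listed. Mkrn1, a ubiquitin ligase, stood at 8234 against 28.3 CPM, a ratio of 291 (273 to 309). Ube2l6, a conjugating enzyme for ubiquitin and the ubiquitin-like Isg15, stood at 3856 against 21.1 CPM. Ube2o, which marks ribosomal proteins for removal in reticulocytes, had a ratio of 46.5. Bnip3l, the receptor through which reticulocytes clear mitochondria, stood at 4550 CPM with a ratio of 37.3, and the autophagy genes Gabarapl2 and Map1lc3b had ratios of 28.6 and 6.61. The ubiquitin gene Ubb stood at 10374 CPM, with a ratio of 4.01 that lay at the limit itself. Other large ratios named by rank were those of Isg20, an RNA exonuclease (1122), Fam46c, a poly(A) polymerase (350), Fam220a (77.2), Rsad2, an interferon-induced gene also called viperin (51.4), and Cd24a, a surface protein of erythroblasts and other cells (41.1). March2, a membrane ubiquitin ligase, stood at 2203 against 44.1 CPM.

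Several master regulators of the lineage had 0 or 1 UMI in these cells, although their list as a whole summed to 654 against 238 CPM, a ratio of 2.75. Gata1 had 1 UMI and Klf1, Tal1 and Gfi1b 0, with an upper 95% limit of 21.2 CPM for each of those at 0. The other cells held 1 UMI of Gata1, 34 of Klf1, 185 of Tal1 and 1 of Gfi1b. The ratio of Gata1 was 706 (8.99 to 55418), and Nfe2, with 2 UMIs against 16, had a ratio of 88.2 (9.84 to 375). For Klf1, Tal1 and Gfi1b the upper limits of the ratio were 80.9, 14.2 and 27533.5, so higher levels were not excluded. These counts do not show that the genes were absent. Of 15 erythroid transcription factors 6 were compared and 2 were called higher, E2f2 with 241 CPM (61.3-fold) and Lmo2 with 115 CPM (12.6-fold). Of 9 genes of erythropoietin signalling 3 were compared and only Bcl2l1, which encodes the survival protein Bcl-xL, was called higher, at 459 CPM and a ratio of 31.0, while Epor had 1 UMI. Of 6 progenitor genes only Cd34 was compared and it was not called, with a ratio of 0.727, while Kit and Myb had 0 UMIs. Hemgn and Eif2ak1, from the list of hemoglobin partners and translation control, had 3 and 8 UMIs, and Blvrb, the biliverdin reductase of that list, was its only gene called higher, at 1383 CPM and 13.2-fold.

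Of 4 nuclear RNAs 1 was called lower, with a median ratio of 0.391, and the 12 cell cycle genes compared had a median ratio of 0.504, beside 0.675 over all genes. Malat1, an RNA held in the nucleus, stood at 6690 CPM against 16700 in the other cells, a ratio of 0.401 (0.378 to 0.424), and Xist, likewise nuclear, at 339 against 887 CPM. Neat1 had a ratio of 0.697, and Kcnq1ot1, at 0.218 (0.0997 to 0.414) on 9 UMIs, was the one called lower. Without the 11 cells richest in UMIs outside hemoglobin Malat1 stood at 3356 CPM and Xist at 209 CPM, with ratios of 0.201 and 0.235, and 3 of the 4 nuclear RNAs were called lower. Of the 16 cell cycle genes listed none was called higher. Cenpf passed the lower limit on 2 UMIs, with a ratio of 0.169 and an interval of 0.0205 to 0.611, and would not pass it at 3 UMIs. Mki67, which marks proliferating cells, had 2 UMIs in the erythroid cells (11.5 CPM against 34.6), and Top2a had 4. Ube2c, which acts in mitosis and was not on that list, was called higher, with 151 UMIs and a ratio of 10.9. It was chosen after its value was seen.

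Mitochondrial transcripts took a larger share of the RNA outside hemoglobin and ribosomal protein transcripts a smaller one. The 13 mt- genes together stood at 182663 CPM against 45754, a ratio of 3.99, and 6 of them, such as mt-Co3 (4.48) and mt-Atp6 (4.55), passed the limit of 4. Per cell the mitochondrial part of the UMIs outside hemoglobin had a median of 22.7%, against 4.76% in the other cells. Of the 84 ribosomal protein genes 80 were compared and none was called in either direction, and their sum was 203003 against 281349 CPM.

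Transcripts of other cell types were present in the erythroid cells, mostly those of the stroma. All 10 stromal genes were found, none passed a limit, and their sum was 26612 CPM against 48246 in the other cells, with Sparc, the most abundant, at 5416 against 10541. Their median ratio was 0.507, below the 0.675 of all genes compared. Without the 11 cells richest in UMIs outside hemoglobin the stromal sum was 19376 CPM, and Ptn, of the same list, went from 4217 to 2436 CPM. An erythroid cell held a median of 6 stromal UMIs, and 225 of the 333 held at least 5. The fibroblast collagen Col1a1 was seen in 232 of the 333. The 10 macrophage genes summed to 42 UMIs, led by Lyz2, and 27 cells held any of them, with Adgre1 at 0. The 6 endothelial genes summed to 22 UMIs, the 6 mural genes to 29, the 6 neutrophil genes to 2 and the 8 lymphocyte and other leukocyte genes to 3, with Cd3e, Cd79a and Ms4a1 at 0. The 7 platelet and megakaryocyte genes summed to 76 UMIs, 50 of them Pf4, which macrophages also make and which had a ratio of 1.55, and 1 cell held 28 of the 76. Of the 7, Pf4 alone was abundant enough to be compared. The platelet receptor genes Clec1b, Gp9 and Gp1bb had 7, 4 and 7 UMIs and ratios of 130 (49.01 to 295), 34.4 (9.17 to 91.6) and 23.8 (9.44 to 49.8), and without the 11 cells richest in UMIs outside hemoglobin Gp1bb was compared and called higher. The 6 skeletal muscle genes summed to 39 UMIs in 29 cells, and Acta1 (14 UMIs, 5.37-fold) and Mylpf (15 UMIs, 4.71-fold) were called higher on those few molecules. What part free RNA or doublets had in these transcripts was not tested.

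The genes with the smallest ratios rested on very few molecules. The 10 lowest, of those that reached 100 UMIs in the other cells, had 1 or 2 UMIs in the erythroid cells. They were Hist1h2ap and Hist1h2ae (histone genes), Zfp36 and Nfkbiz (immediate early and inflammatory regulators), Pdha1, Fxr1, Tubb6, Csnk1g2, Mpzl1 and Ppm1l. Zfp36, for example, stood at 11.5 against 158 CPM, a ratio of 0.0725 with an interval of 0.00878 to 0.262, and the ratio of Ppm1l was 0.0996 with an interval of 0.00252 to 0.555. The only UMI of Ppm1l lay in 1 of the 11 cells richest in UMIs outside hemoglobin. At this depth the order of these genes among themselves is not resolved.

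The share of cells with a UMI was compared after each cell was thinned to 200 UMIs outside hemoglobin, which left out 51 erythroid cells and kept 282. Alas2 was then seen in 82.6% (77.7 to 86.9%) of erythroid cells and 0.0547% of the other cells. The same shares were 66.7% and 0.609% for Mkrn1, 58.5% and 0.273% for Bpgm, 51.8% and 7.94% for Gpx1, and 7.45% and 0.0137% for Slc4a1. Unthinned, Alas2 was seen in 89.5% of erythroid and 0.855% of other cells and Slc4a1 in 15.6% and 0.150%, whereas Gpx1 was seen in 52.9% of erythroid cells and 79.1% of the deeper other cells. Malat1 was seen in 39.0% of thinned erythroid cells and 83.1% of thinned other cells. After thinning, the 5 erythroid genes named here were each seen in a larger share of erythroid than of other cells.

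The level of Alas2 rose over classes of hemoglobin share, the value by which the cells were chosen. UMIs outside hemoglobin enter both that share and the CPM, so a trend over the classes is not independent of the grouping. Alas2 stood at 2770 CPM in cells at 50 to 80% hemoglobin, 9206 at 80 to 90%, 17421 at 90 to 95% and 25484 at 95% or more, with no overlap of the intervals. Ftl1 went the same way, from 6241 to 29732 CPM, and Ube2l6 from 1146 to 8760 CPM. Gpx1 did not. It stood at 5557 CPM in the lowest class, 23628 and 17982 CPM in the middle classes and 3186 CPM in the highest. Prdx2 went from 1927 over 5937 and 5630 to 2124 CPM, Slc4a1 had 0 UMIs in the highest class, and Car2 likewise.

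The class at the upper end is small, as its 31 cells together held 7534 UMIs outside hemoglobin. With class limits of 70, 85 and 92% the highest class held 144 cells and still lay below the class before it, at 12286 against 26590 CPM for Gpx1, 4264 against 7062 CPM for Prdx2, 148 against 1217 CPM for Slc4a1 and 486 against 2840 CPM for Car2. The ratio of the highest to the lowest class went from 0.573 to 3.05 for Gpx1 with those limits. Malat1 stood at 12594 CPM in the lowest class and at 4759, 2374 and 3849 CPM in the others, and the stromal list at 39678, 21296, 17854 and 19512 CPM. The values of the lowest class rested on a few cells, since 11 of its 60 cells held 44950 of its 62806 UMIs outside hemoglobin. Over the other cells of that class Malat1 stood at 3304 CPM (2515 to 4262) and the stromal list at 20161 CPM (18132 to 22355), intervals that overlap those of the cells at 95% or more. Alas2 stood there at 3808 CPM, still under the next class, and Gpx1 at 2968 CPM, with an interval that holds the 3186 CPM of the highest class. The mitochondrial share outside hemoglobin was 14.3% over the whole lowest class and 32.3% at the median of its cells.

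**Figure D3:**
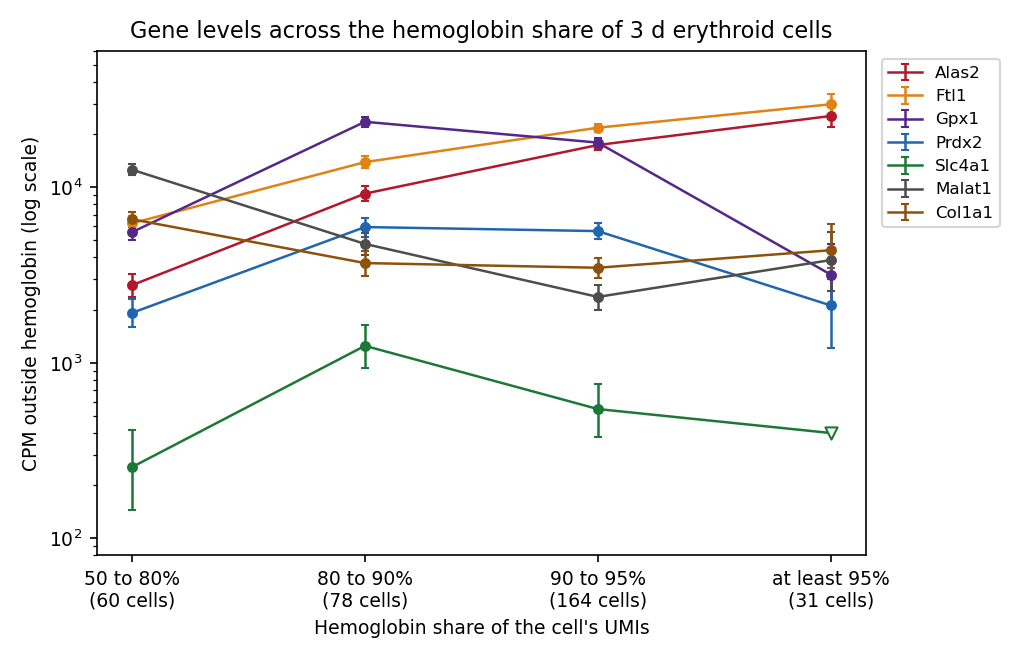
Levels of 7 genes (y axis, CPM outside hemoglobin on a log scale) in the 3 d erythroid cells grouped by hemoglobin share (x axis), with exact Poisson 95% intervals and open triangles at the level of 3 UMIs where a gene had 0 UMIs. Alas2 climbs from 2770 to 25484 CPM over the classes, while Gpx1, Prdx2 and Slc4a1 are highest at 80 to 90% and lower in the 31 cells at 95% or more.

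The erythroid cells were also split by their Hbb-bt share, a grouping chosen after that share had been seen to vary. The 52 cells with Hbb-bt under 5% of beta UMIs held few or no UMIs of several transcripts that were called higher in the erythroid cells. Gpx1 had 0 UMIs in these 52 cells, where 3 UMIs would be 228 CPM, against 5241 CPM in the 71 cells at 5 to 15% and 16989 CPM in the 210 cells at 15% or more. Cd24a had 0 UMIs against 678 and 2641 CPM in the same order, and Car2 had 0 UMIs against 181 and 1490 CPM. Bpgm stood at 228 CPM (3 UMIs) against 3208 and 7627 CPM, Mkrn1 at 1062 against 4744 and 9470 CPM, and Prdx2 at 531 against 2259 and 4879 CPM. In Gpx1, Cd24a, Bpgm, Mkrn1 and Prdx2 the middle class lay between the outer ones. For Car2 the 181 CPM of the middle class is below the level of 3 UMIs in the lowest class, so that their order is not resolved.

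Alas2 differed far less between the classes. It stood at 9940 CPM under 5%, 12606 at 5 to 15% and 10254 at 15% or more. Ube2l6 stood at 4097, 3886 and 3828 CPM, Fam220a at 2049, 2395 and 2511 CPM, and Fech at 1366, 2259 and 1986 CPM. Ftl1 was higher with little Hbb-bt, at 20866 against 13499 CPM, and so was mt-Co3, whose gene encodes a subunit of cytochrome oxidase, at 68290 against 35072 CPM. By cell, Gpx1 was seen in 0% of the 52 cells, 22.5% of the 71 and 76.2% of the 210, and Alas2 in 67.3%, 84.5% and 96.7%.

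Over all genes with a mean of at least 500 CPM in the outer classes, 215 were compared. In the cells with Hbb-bt under 5%, 22 genes (10.2%) were called lower than in those at 15% or more by at least 4-fold and 0 genes (0%) were called higher by the same limits. Of those 22, 19 were among the genes called higher in erythroid than in other cells, of which 46 were compared here. The exceptions, named after their values were seen, were Meg3, H3f3a and Tceb2. In the cells with little Hbb-bt 12 of the 22 had fewer than 3 UMIs, 21 were still called with such counts raised to 3 UMIs, and the whole interval of the ratio lay at or under 0.25 for 11. Besides those named, the 22 included Slc25a37, with 8 UMIs and a ratio of 0.165 (0.0709 to 0.328), and Blvrb, with 3 UMIs and a ratio of 0.142 (0.0292 to 0.422). Slc25a39, another mitochondrial carrier, had 1 UMI there against 270 in the cells at 15% or more, Eif5, a translation initiation factor, 1 against 190, and Map1lc3b 2 against 230, with upper 95% limits of the ratio of 0.219, 0.313 and 0.335. The upper 95% limit of the ratio was 0.0165 for Gpx1 and 0.107 for Cd24a, both at 0 UMIs in the cells with little Hbb-bt. The median ratio over the 215 was 0.951.

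The cells with little Hbb-bt were also smaller in UMIs, with a median of 1767.5 against 5867.5, and their mitochondrial share of UMIs outside hemoglobin was 31.9% against 15.7% over the class. Their part in the difference was not tested. Among cells of at least 2000 UMIs 17 genes were called lower in place of 22. There, 24 cells under 5% had 0 UMIs of Gpx1 and 0 of Cd24a, against 17623 and 2709 CPM in 186 cells at 15% or more, Mkrn1 stood at 1889 against 9790 CPM, and Alas2 at 15400 against 10429 CPM. The stromal list stood at 21549 CPM under 5% and 28416 CPM at 15% or more, and Malat1 at 2504 and 7627 CPM. The 11 cells richest in UMIs outside hemoglobin all lay in the class at 15% or more. Without them that class held the stromal list at 19325 CPM, Malat1 at 3489 CPM and Gpx1 at 21963 CPM, and 35 genes were called lower under 5%. Alas2 then stood at 14029 CPM which put the 3 classes in the order of their Hbb-bt share, Ube2l6 at 5212, Fam220a at 3499 and Fech at 2585 CPM, while Ftl1, at 17921 CPM, and mt-Co3, at 43777 CPM, stayed below the class with little Hbb-bt.

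**Figure D4:**
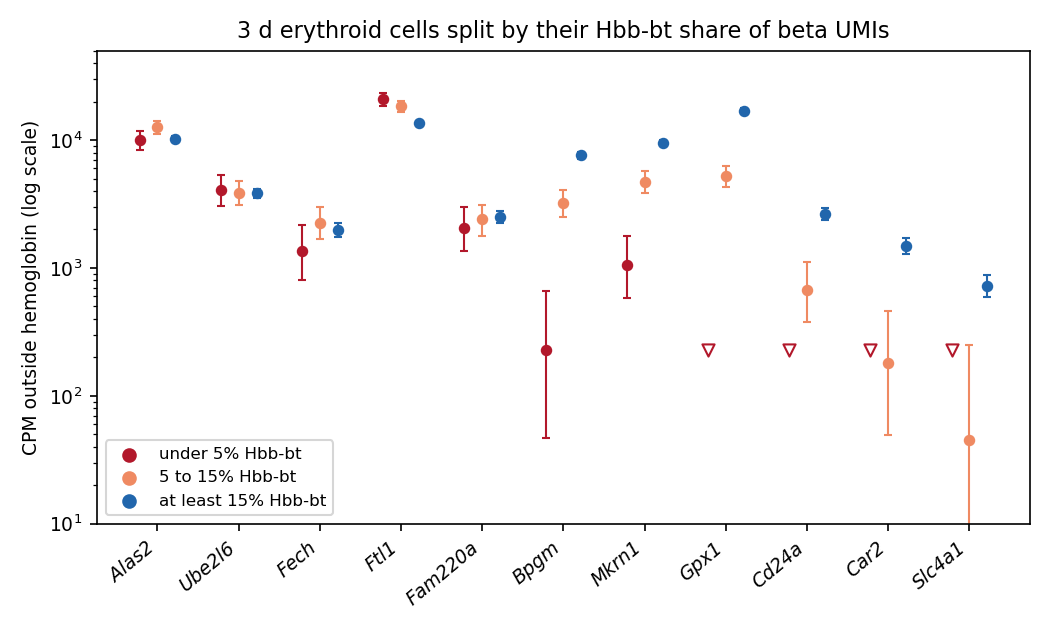
Levels of 11 genes (y axis, CPM outside hemoglobin on a log scale) in 3 d erythroid cells with Hbb-bt under 5%, at 5 to 15% and at 15% or more of beta UMIs (52, 71 and 210 cells), with exact Poisson 95% intervals and open triangles at the level of 3 UMIs where a gene had 0 UMIs. Alas2, Ube2l6, Fech and Fam220a lie close together in all classes, whereas Bpgm, Mkrn1, Gpx1 and Cd24a step up with the Hbb-bt share. Car2 and Slc4a1, with 4 and 1 UMIs in the middle class, lie there below the triangle of the lowest class and are highest at 15% or more.

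Hemoglobin was found outside the erythroid cells too. The 14626 other retained cells held 327863 adult hemoglobin UMIs, 19.0% of those in the library, at a median of 3 UMIs and 0.0342% of a cell's UMIs. Most of it lay in few cells, as the 72 cells at 10 to 50% held 262394 of these UMIs and the 14427 cells under 1% held 44980. Hbb-bt made 14.6 to 15.4% (interval) of beta UMIs in the cells under 1% and 13.7% in the 127 cells at 1 to 10%. It made 18.3% in those at 10 to 50% and 17.6% in the erythroid cells. Alpha chains made 39.6%, 43.1%, 39.1% and 40.3% of hemoglobin UMIs in the same order. Alas2 stood at 0.328 CPM in cells under 1% and at 589 CPM in those at 10 to 50%. The ratio of Alas2 between erythroid and other cells was 3077 with all other cells counted and 20774 against those under 5% hemoglobin, and that of Slc4a1 2118 and 10228.

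By the same rule, 2 of 9372 retained cells were erythroid at 3 w (0.0213%), 2 of 8775 at 16 w (0.0228%), 30 of 10115 at 78 w (0.297%, interval 0.200 to 0.423%) and 31 of 8467 in the injured discs (0.366%, interval 0.249 to 0.519%). The 3 d share of 2.23% was above all of them by more than its counting error. The age of the mice and the single suspension behind each library cannot be told apart here. Barcodes were also compared between libraries. Of the 333 erythroid barcodes 1 recurred at 78 w, where its cell was not erythroid, and none in the other libraries, which share 28 to 39 barcodes with the 3 d library.

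The erythroid cells of the 78 w and injured discs were poorer in Hbb-bt. It made 7.47% of beta UMIs at 78 w (interval 7.26 to 7.69%) and 9.66% in the injured discs (9.18 to 10.1%), against 17.6% at 3 d (17.5 to 17.7%). Per cell the median was 5.09% at 78 w, with a range of 0.858% to 16.0%, and 7.37% in the injured discs, with a range of 0.615% to 31.3%, so both overlapped the 3 d cells. These cells were also shallower, with a median of 3141 UMIs at 78 w and 833 in the injured discs against 4865 at 3 d, and the part of depth in the difference was not tested. Among cells of 95% hemoglobin or more, an alternative chosen after the values were seen, Hbb-bt made 7.74% in 18 cells at 78 w (median of 4614 UMIs), 9.77% in 18 injured cells (958 UMIs) and 16.1% in 31 cells at 3 d (5363 UMIs). The 2 cells at 3 w stood at 19.4% and 22.5%, below and above the upper quartile of the 3 d cells, which was 20.4%. The 2 cells at 16 w stood at 0.475% and 1.99%.

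**Figure D5:**
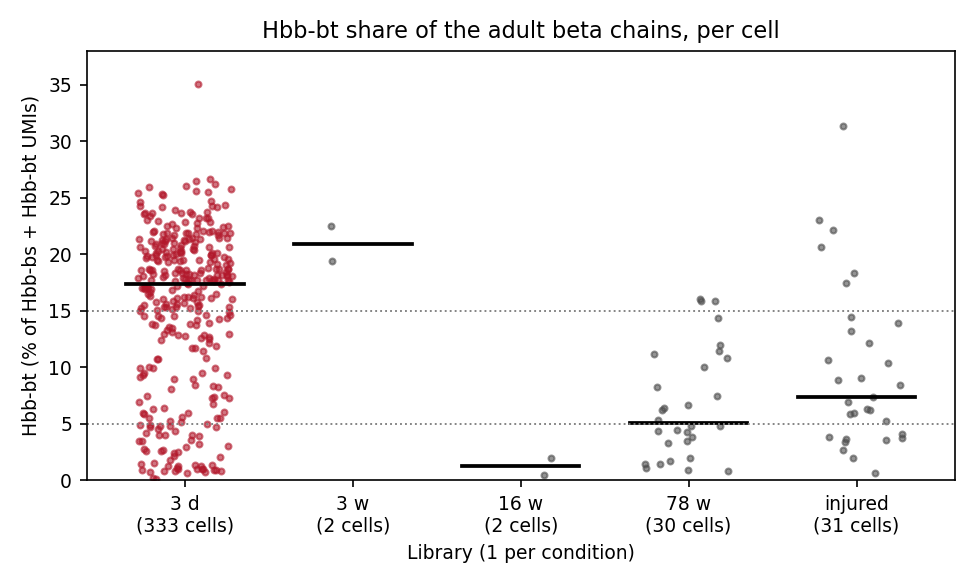
Hbb-bt as a percent of Hbb-bs and Hbb-bt UMIs (y axis) in each cell that met the hemoglobin rule in each library (x axis), with horizontal bars at the medians and dotted lines at 5% and 15%. Most 3 d cells lie above 15% with a tail down to 0.115%, while the medians of the 78 w and injured cells are 5.09% and 7.37%.

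The 30 cells at 78 w had 4198 UMIs outside hemoglobin and the 31 injured cells 1895, so that only abundant genes can be set beside the 3 d values. Alas2 stood at 26203 CPM at 78 w (21536 to 31582) and 18470 CPM in the injured discs (12865 to 25687), above the 10529 CPM (10053 to 11022) at 3 d. Ube2l6 stood at 11196 and 12137 CPM against 3856 CPM at 3 d. Gpx1 stood at 715 CPM at 78 w (147 to 2088) and 1055 CPM in the injured discs (128 to 3812), below the 14212 CPM at 3 d. These cells were, however, richer in hemoglobin, with a median share of 95.8% at 78 w and 95.2% in the injured discs against 91.2% at 3 d. Among cells of 95% hemoglobin or more Alas2 stood at 32963 CPM at 78 w (26366 to 40709), 27859 CPM in the injured discs (16773 to 43506) and 25484 CPM at 3 d (22007 to 29355), with overlapping intervals. Gpx1 stood there at 767 CPM (92.8 to 2769) and 1466 CPM (37.1 to 8170) against 3186 CPM (2041 to 4740) at 3 d, and Ube2l6 at 13032 CPM (9025 to 18211) and 19062 CPM (10150 to 32596) against 8760 CPM (6775 to 11145), again with intervals that overlap those of the 3 d cells. Slc4a1 had 1 UMI at 78 w and 0 in the injured discs, and Prdx2 3 and 0 UMIs. Bpgm stood at 6908 CPM at 78 w (4626 to 9921), an interval that holds the 3 d value of 6507 CPM, and at 2111 CPM in the injured discs (575 to 5405). The stromal list stood at 14531 CPM in the 78 w cells and 23747 CPM in the injured ones, against 26612 CPM at 3 d. The 2 cells at 3 w held 31 UMIs of Gpx1 among 349 UMIs outside hemoglobin, and the 2 cells at 16 w held 0 among 157.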

How the data were processed

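Per the labels, discs were digested with Pronase and Collagenase P and 10x Genomics 3′ libraries were made. The authors deposited raw UMI counts per gene (27998 genes) and barcode for 5 libraries, without normalization. The submitters' processing notes name Cell Ranger 3.1 and mm10, and the file headers name Cell Ranger 4.0.0. The lowest barcode held 500 UMIs, above the more than 200 transcripts that the study required. Total UMIs were 125130270, 125427849, 88998394, 105309834 and 31585993 for 3 d, 3 w, 16 w, 78 w and injured.

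From the deposited counts, CPM outside 8 hemoglobin genes, ratios with exact conditional binomial intervals, exact Poisson intervals and Clopper-Pearson intervals (95%) were computed in Python 3.11.15 with numpy 2.4.6, scipy 1.17.1 and pandas 2.3.3, and drawn with matplotlib 3.10.9. Each library was 1 sample, so no p-value was computed. Named genes were those of 21 lists, the 10 with the highest CPM, and the 20 largest and 10 smallest ratios with at least 100 UMIs in the higher group. The cells and the lists were chosen with earlier results of these data known. A few genes of these lists and ranks are not reported here by name. No doublet caller was run. The ratio step was tested on simulated data. Gene positions and transcripts were from GENCODE M21 (GRCm38), which held 98.7% of the gene identifiers.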

Additional observations from a re-analysis of the deposited data

How the results depend on the processing

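No paired analysis was possible because each condition had 1 library and no result came from a test. The number of erythroid cells was 373 at a hemoglobin limit of 30%, 273 at 80% and 298 with at least 1000 UMIs, and the injured library then kept 12 cells. As means over cells, alpha made 41.3% of hemoglobin, Hba-a2 41.1% of alpha and Hbb-bt 15.2% of beta, and Hbb-bt made 17.4% in cells at 80% or more. Thinned to 100 UMIs, the shares of cells with a UMI were 67.3% for Alas2, 38.1% for Gpx1 and 19.5% for Malat1. Genes called lower were 396 with cells at 80% or more, 400 with equal weight per cell and 44 with ratios divided by their median. Genes called higher and lower were 27 and 2658 with hemoglobin kept in the totals, 9883 and 402 without a filter on low values and 92 and 4 at a mean of at least 100 CPM. All of the 143 genes called higher were shared with the calls in cells at 80% or more, and 126 with those at equal weight, while of the 136 called lower 84 and 97 were shared. With counts under 3 UMIs raised to 3, chosen after seeing the data, 50 were called lower. Of the 30 ratios ranked largest or smallest, the number that left its interval was 11 with equal weight, 21 with hemoglobin kept, 19 with cells at 80% or more, 9 against other cells under 5% hemoglobin, 19 when divided by the median and 15 without the 11 cells over 2000 UMIs outside hemoglobin. Without those 11 cells, an alternative chosen after seeing the data, 325 genes were called lower, and 35 in the split by Hbb-bt. With other class limits the ratio of the highest to the lowest hemoglobin class was 3.05 for Gpx1. After the split by Hbb-bt, chosen after seeing the data, 17 genes were called lower among cells of at least 2000 UMIs and 30 among cells at 80% hemoglobin or more. The cause of these changes was not tested. Genes under 17.2 CPM, or 3 UMIs, in the erythroid cells cannot be resolved.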

Other observations

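Embryonic hemoglobin was found in the 3 d library outside the erythroid cells. Hba-x, the embryonic alpha-type chain, had 167 UMIs in 4 of the 14959 retained cells, and 164 of them lay in 1 cell. That cell also held 22 UMIs of Hbb-y and 3 of Hbb-bh1, both embryonic beta-type chains, and 8 UMIs of the 4 adult genes among its 14823 UMIs (0.0540%). Alas2, Gata1 and Klf1 had 0 UMIs in it, while the stromal genes Sparc, Col3a1, Ptn and Col1a2 had 161, 149, 144 and 113. It was chosen after its values were seen.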
